A study of Homo sapiens with 30 samples.

Results

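Feedback genes of the MAP kinase pathway were followed in the bladder carcinoma cell line 5637 across RBPMS knockout, ANKRD10 isoform overexpression and ANKRD10 isoform knockdown. The genes are the phosphatases DUSP4, DUSP5 and DUSP6, the Sprouty genes SPRY1, SPRY2 and SPRY4, the Sprouty-related genes SPRED1 and SPRED2, and the ETS transcription factor genes ETV4 and ETV5. They were chosen by symbol as commonly used transcriptional readouts of ERK output, with earlier results of these data known. All 10 were found in each of the 3 count tables, among 60612 genes listed in the knockout table and 56303 in each of the other two, and all 10 were tested in every comparison. SPRY4 passed the test in all 6 comparisons of a treated group with its control, being higher in 4 and lower in 2. SPRY2 passed it in 0 of 6 by edgeR's quasi-likelihood test and 0 of 6 by DESeq2, with 1 of 6 at an unadjusted p under 0.05.

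Growth factor receptors activate RAS, which switches on the kinases RAF, MEK and ERK in turn. Active ERK enters the nucleus and induces genes whose products turn the pathway down again, so that the mRNA level of these genes is often read as a measure of recent pathway output. DUSP6 dephosphorylates ERK in the cytoplasm, and DUSP5 and DUSP4 do so in the nucleus, where DUSP4 also acts on other MAP kinases. Sprouty and SPRED proteins act upstream, between the receptor and RAF, and SPRED proteins recruit the RAS inactivator neurofibromin. ETV4 and ETV5 are ETS factors that carry the transcriptional response forward. In bladder cancer the pathway is commonly driven by FGFR3, RAS or ERBB receptor lesions.

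The RNA-seq series held 30 libraries of 5637 cells in 10 groups of 3. The first table held RBPMS knockout cells, KO1 and KO2, each with a control group of its own number, labelled WT1 and WT2 and here called wild-type. The study's figures call the controls of the knockouts sgCtrl, and its discussion calls them wild-type. Whether they were given a control sgRNA is therefore not settled. In the second table cells overexpressing either isoform of ANKRD10, ANKRD10-1 or ANKRD10-2, were set against 1 group with the empty vector (Vector). The third held cells given siRNA against either isoform, siANKRD10-1 or siANKRD10-2, and 1 group given the control siRNA siNC. RBPMS is an RNA-binding protein, and the study asked how it shapes ANKRD10 splicing and gene expression in bladder cancer. The knockouts were made with sgRNAs and grown from single cells, so that each is limited by the particulars of its clone. The study's text places ANKRD10-1 overexpression and ANKRD10-2 knockdown in cells that already lacked RBPMS, whereas the labels name 5637 cells alone and each table has 1 control group. The labels therefore do not settle whether these 2 groups share the cell background of their controls. In RBPMS transcript, given below, neither group differed from its control past the test, whereas both knockouts did. The cell background itself was not tested. The labels do not say whether the libraries of a group came from separate cultures, so p-values measure the spread between these libraries, which may be technical.

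Total counts per library were 44593108 to 69723937 in the knockout table, 31736779 to 47493499 in the overexpression table and 28511029 to 32784584 in the knockdown table. RBPMS fell by 1.44 ± 0.07 (log2, SE) in KO1 and by 1.09 ± 0.06 in KO2. Its means were 14.9 and 20.3 CPM (read counts scaled to library size), from 40.4 and 43.1 in WT1 and WT2, so transcript remained in both knockouts. The study assessed RBPMS protein in its knockout cells by Western blot, and transcript counts do not measure protein. In the overexpression and knockdown tables RBPMS was at 3.57 to 6.29 CPM, with log2 fold changes of -0.19 ± 0.13 for ANKRD10-1 against Vector and 0.03 ± 0.14 for siANKRD10-2 against siNC, neither past the test. ANKRD10, counted over both isoforms, fell by 1.18 ± 0.05 in KO1 and by 0.76 ± 0.04 in KO2 (edgeR adjusted p = 6.55e-08 and 3.98e-08). It rose by 0.67 ± 0.04 with ANKRD10-1 and 0.41 ± 0.05 with ANKRD10-2, and fell by 0.24 ± 0.06 with siANKRD10-1 and by 0.25 ± 0.06 with siANKRD10-2. All 11 epithelial and urothelial markers were detected, with a summed level of 3810 to 7080 CPM per library. That sum was 4040 to 4180 CPM with siANKRD10-2, 5870 to 6220 CPM with siANKRD10-1 and 6640 to 7080 CPM with siNC. It was 3810 to 3930 CPM in Vector, 4110 to 4270 CPM with ANKRD10-1 and 4330 to 4850 CPM with ANKRD10-2, and 4070 to 4260 CPM in KO2 against 4320 to 4570 CPM in WT2, also without overlap, while KO1 at 4340 to 4580 CPM overlapped WT1 at 4470 to 4550 CPM. The part of these differences in the results was not tested. Leukocyte markers summed to at most 1.36 CPM, with PTPRC and CD3E at 0 throughout the knockout table, and endothelial markers to at most 3.4 CPM. Fibroblast markers summed to 32.6 to 38.1 CPM in KO1 and 53.3 to 57.2 CPM in WT1, most of it COL1A1 at 31 to 52.3 CPM over the table, where LUM reached 4.61 CPM and PDGFRB 1.83 CPM, and PDGFRA, DCN, COL1A2 and COL3A1 stayed under 1 CPM. In bulk RNA a change in the number of cells of a kind and a change in RNA per cell cannot be told apart.

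RefSeq promoter windows (GRCh38.p14, 250 bases before to 50 bases after a transcript start) were at hand for 6 of the genes in 10 windows: DUSP6, SPRY1, SPRY2, SPRY4, SPRED1 and SPRED2. They were searched on both strands for an ETS core (CGGAA), AP-1 (TGANTCA), the cyclic AMP response element (TGACGTCA) and the E-box (CACGTG) to which MYC and MAX bind. The windows of DUSP6 and SPRY4 are printed because these are the genes that passed the test most often and because they differed in direction. Each is 5′ to 3′ on the gene's own strand, and capitals mark matches to any of the 4 motifs. The DUSP6 window lies at chr12:89352452-89352751 on the minus strand and the SPRY4 window at chr5:142324198-142324497 on the minus strand. Neither window reaches the 5′ end of its gene, at 89353271 for DUSP6 and 142326455 for SPRY4. Each thus covers 1 transcript start, and sequence around other starts of these genes was not searched.
DUSP6: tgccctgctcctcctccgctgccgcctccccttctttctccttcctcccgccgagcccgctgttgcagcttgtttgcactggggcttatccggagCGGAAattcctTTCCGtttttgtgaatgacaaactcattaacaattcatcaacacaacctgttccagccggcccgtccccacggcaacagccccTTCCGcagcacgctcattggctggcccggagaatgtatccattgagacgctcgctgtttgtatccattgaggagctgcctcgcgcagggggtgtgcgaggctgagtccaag
SPRY4: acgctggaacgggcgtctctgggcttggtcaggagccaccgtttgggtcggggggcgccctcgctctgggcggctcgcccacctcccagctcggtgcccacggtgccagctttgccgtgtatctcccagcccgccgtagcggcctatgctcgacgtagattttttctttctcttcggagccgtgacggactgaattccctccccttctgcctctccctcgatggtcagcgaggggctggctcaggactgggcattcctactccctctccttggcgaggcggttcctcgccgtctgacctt
The DUSP6 window held 3 ETS cores, and the SPRY4 window held no match to any of the 4 motifs. An ETS core also lay in 1 window each of SPRY1, SPRY2 and SPRED2, and another SPRED2 window held 2 AP-1 matches. The E-box and the cyclic AMP response element were in none of the 10 windows. Of 35116 promoter windows of this length in the human table, 34.9% held the ETS core, 7.71% AP-1, 1.85% the cyclic AMP response element and 7.26% the E-box. A match is a description of these letters and not a bound site.

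In the control groups DUSP4 and DUSP6 stood highest per length of transcript and ETV5 lowest. Per kilobase of exon, DUSP4 was at 10.5 ± 0.593 CPM (SD, n = 3) and DUSP6 at 9.85 ± 0.315 CPM in WT1, a difference within their spread. SPRED2 and SPRY2 followed at 7.5 ± 0.196 and 7.43 ± 0.522 CPM per kb, likewise within their spread, and then ETV4 at 6.6 ± 0.0799 and SPRED1 at 5.67 ± 0.118. DUSP5, SPRY1, SPRY4 and ETV5 were at 2.58 ± 0.411, 1.57 ± 0.18, 0.805 ± 0.104 and 0.191 ± 0.0941 CPM per kb, each separated from the next by more than their spread. Vector and siNC cells had DUSP6 first and DUSP4 second, at 17.8 and 5.77 CPM per kb in Vector and 13.1 and 6.85 CPM per kb in siNC, and ETV5 last at 0.359 and 0.301 CPM per kb. The tables were normalized separately, so levels are not comparable between them.

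Feedback genes that passed the test in an RBPMS knockout were all higher, and 4 of the 10 passed in both: DUSP5, DUSP6, SPRY4 and ETV4. The share of all genes that passed in both was not computed. In KO1 against WT1, 5 of the 10 passed the test and all 5 were higher: DUSP5, SPRY4, SPRY1, ETV4 and DUSP6. Among the 17865 genes tested in that comparison 17.9% were higher and 18.2% lower. In KO2 against WT2, 7 of the 10 passed and all 7 were higher: ETV5, DUSP6, DUSP5, DUSP4, SPRY4, SPRED1 and ETV4. There 19.3% of 18267 genes were higher and 19.2% lower. By edgeR 0 feedback genes were lower in either knockout, and 0 were lower at an unadjusted p under 0.05 or by DESeq2. The median log2 fold change of the 10 genes was 0.51 in KO1 and 0.52 in KO2, beside -0.002 and -0.016 over all genes tested.

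**Figure D1:**
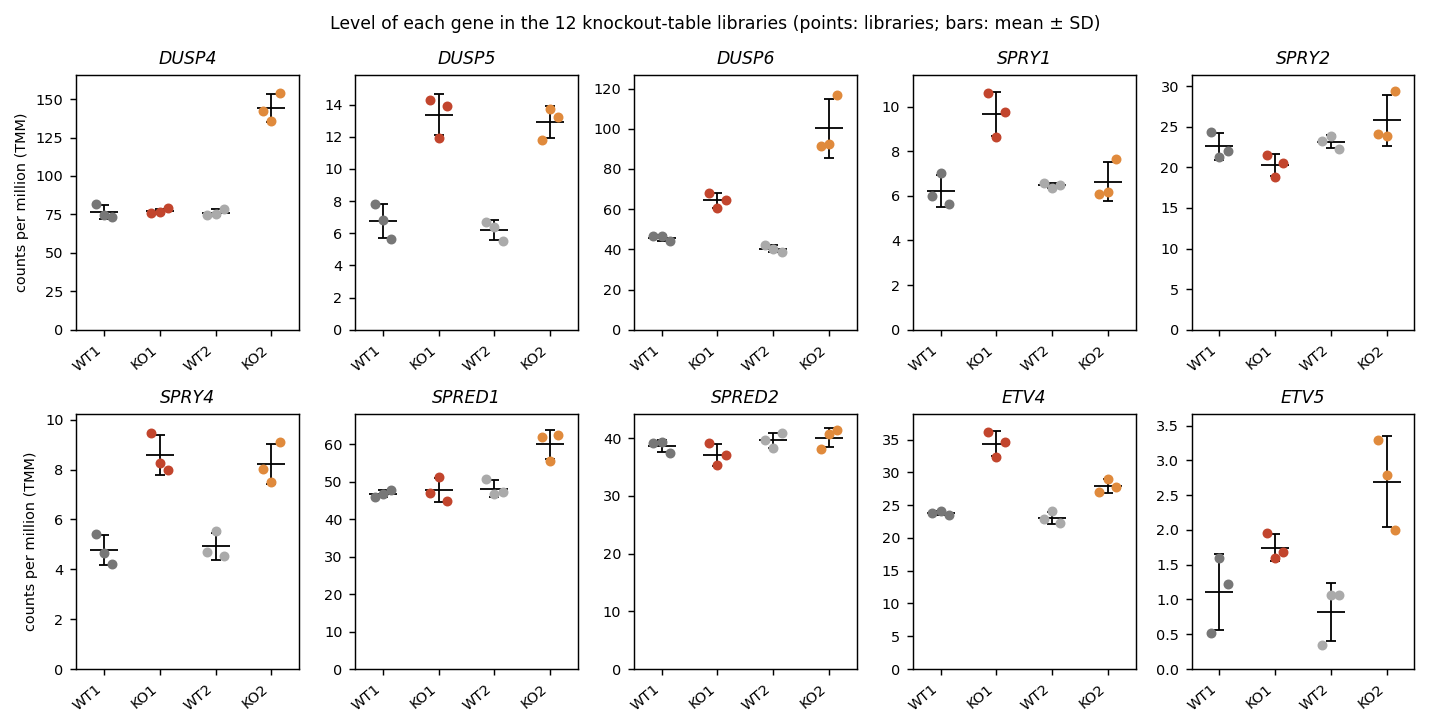
Level of the 10 feedback genes in each library of the knockout table, in TMM-normalized CPM on linear axes from 0 (points are libraries, horizontal marks the group mean and bars 1 SD, n = 3 per group). DUSP5 and SPRY4 sit above their wild-type groups in both knockouts, DUSP4 in KO2 alone (136 to 154 CPM against 74.8 to 78.7 CPM in WT2), and SPRY2 and SPRED2 overlap their controls.

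DUSP5, the inducible nuclear ERK phosphatase, rose in both knockouts. It was at 14.3, 11.9 and 13.9 CPM in KO1 and 7.79, 6.82 and 5.65 CPM in WT1. In KO2 it was at 11.8, 13.7 and 13.2 CPM and in WT2 at 6.68, 6.37 and 5.51 CPM. The groups did not overlap, and DUSP5 rose by 0.99 ± 0.14 (log2, SE) in KO1 (edgeR adjusted p = 0.000219) and 1.06 ± 0.12 in KO2 (adjusted p = 1.71e-05), or 1.98-fold and 2.08-fold.

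DUSP6, the cytoplasmic ERK phosphatase, was at 67.9, 60.7 and 64.6 CPM in KO1 and 46.4, 46.5 and 44 CPM in WT1. Its KO2 libraries were at 91.4, 92.2 and 117 CPM, above the WT2 libraries at 42.4, 40.1 and 38.7 CPM. Every knockout library was above every wild-type library of the table, and the third KO2 library was the highest of all. DUSP6 rose by 0.50 ± 0.06 in KO1 (edgeR adjusted p = 8.76e-05) and 1.30 ± 0.08 in KO2 (adjusted p = 1.85e-07). Without the third KO2 library its rise in KO2 was 1.18 ± 0.06 (edgeR adjusted p = 8.74e-08).

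DUSP4, the nuclear phosphatase with the wider choice of MAP kinases, separated the knockouts. It was at 75.6, 76.7 and 79 CPM in KO1, inside the range of WT1 at 81.5, 74.5 and 73.6 CPM. KO2 was at 142, 136 and 154 CPM, far above WT2 at 74.8, 75.1 and 78.7 CPM. The log2 fold change was 0.01 ± 0.06 in KO1, with a 95% confidence interval of -0.11 to 0.13, and 0.92 ± 0.05 in KO2 (edgeR adjusted p = 4.08e-08). DUSP4 lies 1.03 Mb from RBPMS on chromosome 8 (GRCh38 chr8:29333064-29350668, minus strand, with RBPMS at chr8:30384479-30572261), the chromosome on which the cells were edited. The median over the 34 genes tested within 2 Mb of DUSP4 was -0.04 in KO1 and -0.01 in KO2 (log2 fold change).

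SPRY4, a Sprouty protein that restrains RAS activation downstream of receptors, was at 9.48, 8.25 and 7.98 CPM in KO1 and 5.43, 4.67 and 4.21 CPM in WT1. It was at 8.04, 7.51 and 9.12 CPM in KO2 and 4.7, 5.55 and 4.54 CPM in WT2. No wild-type library reached a knockout library. SPRY4 rose by 0.85 ± 0.15 in KO1 (edgeR adjusted p = 0.000986) and 0.74 ± 0.14 in KO2 (adjusted p = 0.00108).

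SPRY1, its paralogue, rose in KO1 and did not pass the test in KO2. The KO1 libraries were at 10.6, 8.66 and 9.74 CPM against 5.99, 7.01 and 5.63 CPM in WT1, a log2 fold change of 0.64 ± 0.13 (edgeR adjusted p = 0.00344). KO2 was at 6.09, 6.18 and 7.64 CPM and WT2 at 6.56, 6.36 and 6.5 CPM, where the groups overlapped and the log2 fold change was 0.03 ± 0.13, with an interval of -0.26 to 0.32. SPRY2, the third Sprouty gene, was at 18.8 to 21.5 CPM in KO1, 21.3 to 24.4 CPM in WT1, 23.9 to 29.4 CPM in KO2 and 22.3 to 23.9 CPM in WT2. Its groups overlapped in both comparisons, with log2 fold changes of -0.15 ± 0.08 and 0.15 ± 0.08 that did not pass the test (edgeR adjusted p = 0.185 and 0.175).

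Of the SPRED genes SPRED1 rose in KO2 and SPRED2 passed the test in neither knockout. SPRED1, mutated in Legius syndrome, was at 47, 51.3 and 44.9 CPM in KO1 and 45.8, 46.8 and 47.8 CPM in WT1, with a log2 fold change of 0.03 ± 0.06. In KO2 it was at 62, 55.4 and 62.4 CPM against 50.7, 46.6 and 47.1 CPM in WT2, and it rose by 0.31 ± 0.06 (edgeR adjusted p = 0.000971). SPRED2 had log2 fold changes of -0.06 ± 0.06 and 0.01 ± 0.05, with all 12 libraries between 35.3 and 41.4 CPM. The intervals of SPRED2 were -0.20 to 0.08 in KO1 and -0.10 to 0.13 in KO2.

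Of the ETS factors ETV4 rose in both knockouts. It was at 36.2, 32.3 and 34.7 CPM in KO1 against 23.8, 24.1 and 23.5 CPM in WT1, and at 27, 29 and 27.7 CPM in KO2 against 22.9, 24.1 and 22.3 CPM in WT2. The rises were 0.53 ± 0.07 (edgeR adjusted p = 0.000141) and 0.27 ± 0.06 (adjusted p = 0.00452). ETV5 rested on few reads, between 23 and 184 counts per library, and was the most scattered member. It was at 1.96, 1.6 and 1.68 CPM in KO1, 0.518, 1.59 and 1.22 CPM in WT1, 3.29, 2.79 and 2 CPM in KO2 and 0.342, 1.06 and 1.07 CPM in WT2. Its rise of 1.70 ± 0.38 in KO2 passed the test (edgeR adjusted p = 0.00384), and the 0.65 ± 0.37 in KO1 did not (adjusted p = 0.2). The KO1 value was 0.32 without WT1 replicate 1 and 1.00 without WT1 replicate 2, and it did not pass in either case (adjusted p = 0.464 and 0.0899).

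The response of the feedback genes differed between the knockouts. When the change in KO1 was set against the change in KO2 in 1 model of all 12 libraries, 5 of the 10 genes differed, beside 23.3% of 19189 genes tested. DUSP4 differed by -0.91 ± 0.08 (log2, KO1 minus KO2, edgeR adjusted p = 2.9e-07) and DUSP6 by -0.81 ± 0.11 (adjusted p = 6.3e-05), both rising more in KO2. SPRED1 differed by -0.29 ± 0.09 (adjusted p = 0.0238), SPRY1 by 0.60 ± 0.18 (adjusted p = 0.0257) and ETV4 by 0.26 ± 0.09 (adjusted p = 0.0432), the latter pair rising more in KO1. The differences of DUSP4 and DUSP6 passed without any 1 library, whereas those of SPRED1, SPRY1 and ETV4 did not. DUSP5 and SPRY4 differed by -0.07 ± 0.18 and 0.11 ± 0.20, with intervals of -0.45 to 0.31 and -0.31 to 0.52, so a difference of up to about that size cannot be told from 0. Without single libraries the adjusted p reached 0.114 for ETV4 (without WT2 replicate 2), 0.0656 for SPRY1 (without KO1 replicate 1) and 0.0622 for SPRED1 (without KO2 replicate 1). ETV4 lost its call when any 1 of the libraries was left out save KO1 replicate 2, KO2 replicate 2 or WT2 replicate 3. SPRY1 lost it without KO1 replicate 1, KO2 replicates 1 and 2, WT1 replicates 1 and 3 or WT2 replicates 1 and 3, and SPRED1 without KO1 replicate 3, KO2 replicates 1 and 3 or WT2 replicates 2 and 3.

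**Figure D2:**
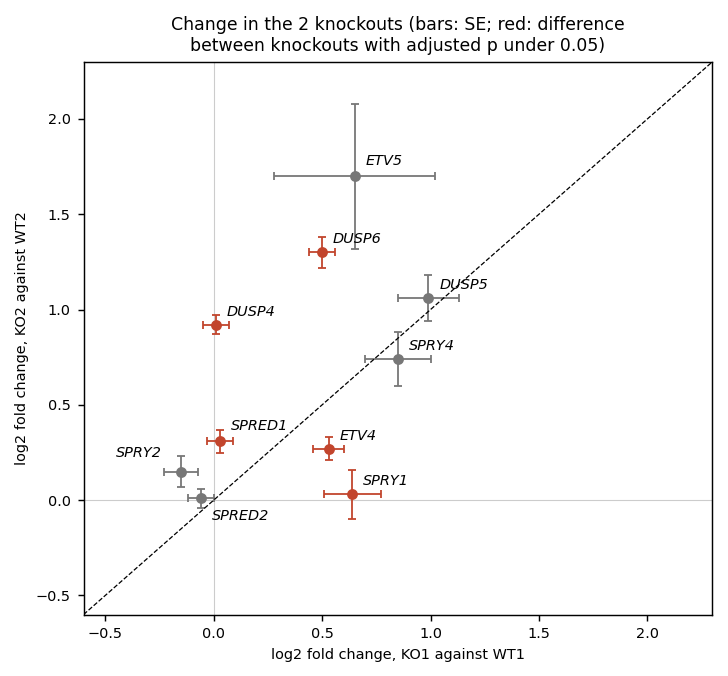
Log2 fold change of each feedback gene in KO1 against WT1 (x axis) and KO2 against WT2 (y axis), with bars of 1 SE and a dashed line of equal change. Red points are the 5 genes whose difference between knockouts had an adjusted p under 0.05: DUSP4, DUSP6 and SPRED1 lie above the line, and SPRY1 and ETV4 below it.

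No feedback gene passed the test between the wild-type groups. In WT2 against WT1, 0 of the 10 passed by edgeR, 0 by DESeq2 and 1 at an unadjusted p under 0.05, beside 1.23% of 18335 genes called in that comparison. The 1 gene was DUSP6, with a log2 difference of -0.17 ± 0.06 (edgeR adjusted p = 0.182) and no overlap between 38.7 to 42.4 CPM in WT2 and 44 to 46.5 CPM in WT1. With all 6 wild-type libraries as the control, the counts were the same, at 5 in KO1 and 7 in KO2.

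With either ANKRD10 isoform overexpressed, DUSP5 and DUSP6 changed in opposite directions. ANKRD10-1 against Vector had 3 of 10 genes past the test, with DUSP5 and SPRY4 higher and DUSP6 lower, beside 3.5% of 20457 genes higher and 2.81% lower. ANKRD10-2 against Vector had 4, with DUSP5 and SPRY4 higher and DUSP6 and SPRY1 lower, beside 10.7% of 20177 genes higher and 9.25% lower. The medians over the 10 genes were -0.06 and -0.09 (log2), beside -0.004 and -0.005 over all genes tested. Both comparisons use the same 3 Vector libraries, so they are not independent of each other.

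DUSP6 was at 80.2, 82.7 and 84.5 CPM in Vector, 67.9, 66.2 and 57.2 CPM with ANKRD10-1 and 45.6, 53.9 and 52.3 CPM with ANKRD10-2. The 3 groups did not overlap, with Vector highest and ANKRD10-2 lowest. DUSP6 fell by 0.37 ± 0.06 with ANKRD10-1 (edgeR adjusted p = 0.000707) and by 0.70 ± 0.06 with ANKRD10-2 (adjusted p = 3.57e-06). Set against each other, ANKRD10-2 was lower than ANKRD10-1 by a log2 difference of -0.33 ± 0.07 (adjusted p = 0.0061), which without ANKRD10-1 replicate 1 was -0.29 with an adjusted p of 0.0644. DUSP6 was the 1 gene of the 10 that passed in ANKRD10-2 against ANKRD10-1, beside 7.26% of 20052 genes.

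DUSP5 and SPRY4 went the other way. DUSP5 was at 5.08, 4.76 and 5.4 CPM in Vector, 6.58, 7.84 and 7.73 CPM with ANKRD10-1 and 9.09, 8.01 and 9.42 CPM with ANKRD10-2, and it rose by 0.54 ± 0.11 (edgeR adjusted p = 0.00554) and 0.80 ± 0.11 (adjusted p = 0.000153). SPRY4 was at 19.9, 22.1 and 21.9 CPM in Vector, 27.1, 27.7 and 24.8 CPM with ANKRD10-1 and 30, 31 and 30.8 CPM with ANKRD10-2. For both genes the 3 groups were ordered without overlap, Vector lowest and ANKRD10-2 highest. SPRY4 rose by 0.32 ± 0.07 with ANKRD10-1 (edgeR adjusted p = 0.0101) and 0.52 ± 0.07 with ANKRD10-2 (adjusted p = 0.000102). The rise with ANKRD10-1 lost its call without ANKRD10-1 replicate 1 (adjusted p = 0.0554), ANKRD10-1 replicate 2 (0.063) or Vector replicate 1 (0.0603). Between the isoforms SPRY4 differed by 0.20 ± 0.07 and DUSP5 by 0.26 ± 0.11, and neither passed (edgeR adjusted p = 0.0636 and 0.145).

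SPRY1 was at 11.9, 12.6 and 13 CPM in Vector and 9.09, 9.69 and 10.4 CPM with ANKRD10-2, and it fell by 0.36 ± 0.09 (edgeR adjusted p = 0.0109). With ANKRD10-1 it was at 12.6, 10.4 and 10.7 CPM, overlapping Vector, with a log2 fold change of -0.15 ± 0.09. DUSP4 was at 47.1, 45.1 and 49.3 CPM with ANKRD10-1 and 44.3, 40.3 and 41.1 CPM in Vector, a log2 fold change of 0.17 ± 0.06 that did not pass (adjusted p = 0.0851). The other 5 genes had log2 fold changes between -0.31 and 0.02 that did not pass in either comparison.

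SPRY4 and SPRED1 fell with both siRNAs against ANKRD10. With siANKRD10-1 against siNC, 4 of 10 genes passed: DUSP4 was higher and SPRED1, SPRY4 and ETV4 were lower, beside 5.08% of 18785 genes higher and 5.52% lower. With siANKRD10-2 against siNC, 5 passed: DUSP4 and DUSP6 were higher and SPRY4, SPRED1 and SPRED2 were lower, beside 17.6% of 18924 genes higher and 18.7% lower. For siANKRD10-2, 2 of 10 higher and 3 of 10 lower lie near the shares over all genes. The medians over the 10 genes were -0.26 and -0.07 (log2), beside 0.004 and 0.001 over all genes tested. These comparisons share the 3 siNC libraries.

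SPRY4 was at 8.01, 7.57 and 8.06 CPM with siNC, 5.51, 6.01 and 5.12 CPM with siANKRD10-1 and 4.72, 4.03 and 3.93 CPM with siANKRD10-2, the 3 groups without overlap. It fell by 0.51 ± 0.11 with siANKRD10-1 (edgeR adjusted p = 0.0072) and by 0.90 ± 0.12 with siANKRD10-2 (adjusted p = 2.41e-06). SPRED1 was at 14.9, 16.1 and 15.6 CPM with siNC, 11.2, 10.7 and 10.3 CPM with siANKRD10-1 and 10.1, 10.4 and 10.8 CPM with siANKRD10-2. It fell by 0.53 ± 0.09 (edgeR adjusted p = 0.000557) and by 0.57 ± 0.09 (adjusted p = 1.11e-05), and its siRNA groups overlapped each other. SPRED2, which passed with siANKRD10-2 alone, was at 8.29, 9.42 and 8.29 CPM there and 10.2, 12.1 and 12.2 CPM with siNC, and it fell by 0.41 ± 0.10 (adjusted p = 0.00297). With siANKRD10-1 its log2 fold change was -0.23 ± 0.11 (adjusted p = 0.2), and the difference between the siRNAs did not pass (-0.18 ± 0.11, adjusted p = 0.229).

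DUSP4 rose with both siRNAs and DUSP6 with siANKRD10-2. DUSP4 was at 49.4, 51.9 and 47.9 CPM with siNC, 58.9, 63.4 and 57.7 CPM with siANKRD10-1 and 64, 56.9 and 61.6 CPM with siANKRD10-2, above siNC in all 6 libraries. It rose by 0.27 ± 0.06 (edgeR adjusted p = 0.00792) and 0.29 ± 0.06 (adjusted p = 0.000383). DUSP6 was at 61.7, 60.6 and 60.3 CPM with siNC and 70.3, 79.2 and 73.2 CPM with siANKRD10-2, and it rose by 0.29 ± 0.06 (adjusted p = 0.000286). With siANKRD10-1 it was at 52.2, 59.6 and 53.9 CPM, below siNC in all 3 libraries, with a log2 fold change of -0.14 ± 0.06 that did not pass (adjusted p = 0.168) save without siANKRD10-1 replicate 2, where it was -0.20 with an adjusted p of 0.0363. DUSP5 was at 2.36 to 3.31 CPM in all 9 libraries, with log2 fold changes of -0.10 ± 0.16 and -0.25 ± 0.17 that did not pass.

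ETV4 was at 13, 12.4 and 13 CPM with siNC and 9.57, 10.4 and 10.4 CPM with siANKRD10-1, and it fell by 0.34 ± 0.09 (edgeR adjusted p = 0.0211). That call was lost without siNC replicate 1 (adjusted p = 0.0758), siNC replicate 2 (0.0542) or siANKRD10-1 replicate 1 (0.113). With siANKRD10-2 ETV4 was at 11.9, 11.1 and 12.3 CPM, a log2 fold change of -0.12 ± 0.09 (adjusted p = 0.318). SPRY1, SPRY2 and ETV5 had log2 fold changes of -0.30 ± 0.14, -0.23 ± 0.10 and -0.61 ± 0.29 with siANKRD10-1 and of 0.01 ± 0.14, -0.00 ± 0.10 and -0.02 ± 0.26 with siANKRD10-2, none past the test.

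Set directly against each other, the siRNAs differed in 2 of the 10 genes, beside 37% of 18832 genes. DUSP6 was higher with siANKRD10-2 than with siANKRD10-1 by a log2 difference of 0.43 ± 0.06 (edgeR adjusted p = 1.2e-05), and SPRY4 was lower by -0.39 ± 0.14 (adjusted p = 0.0305). The SPRY4 difference did not pass by DESeq2 (adjusted p = 0.0531), nor without siANKRD10-1 replicate 1 (0.0659), siANKRD10-1 replicate 2 (0.0945), siANKRD10-2 replicate 2 (0.0843) or siANKRD10-2 replicate 3 (0.107). The share of feedback genes that differed was below that of all genes. SPRY2, not past the test with all libraries (0.23 ± 0.09, adjusted p = 0.0545), passed without siANKRD10-2 replicate 1, with a difference of 0.30 and an adjusted p of 0.0251.

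**Figure D3:**
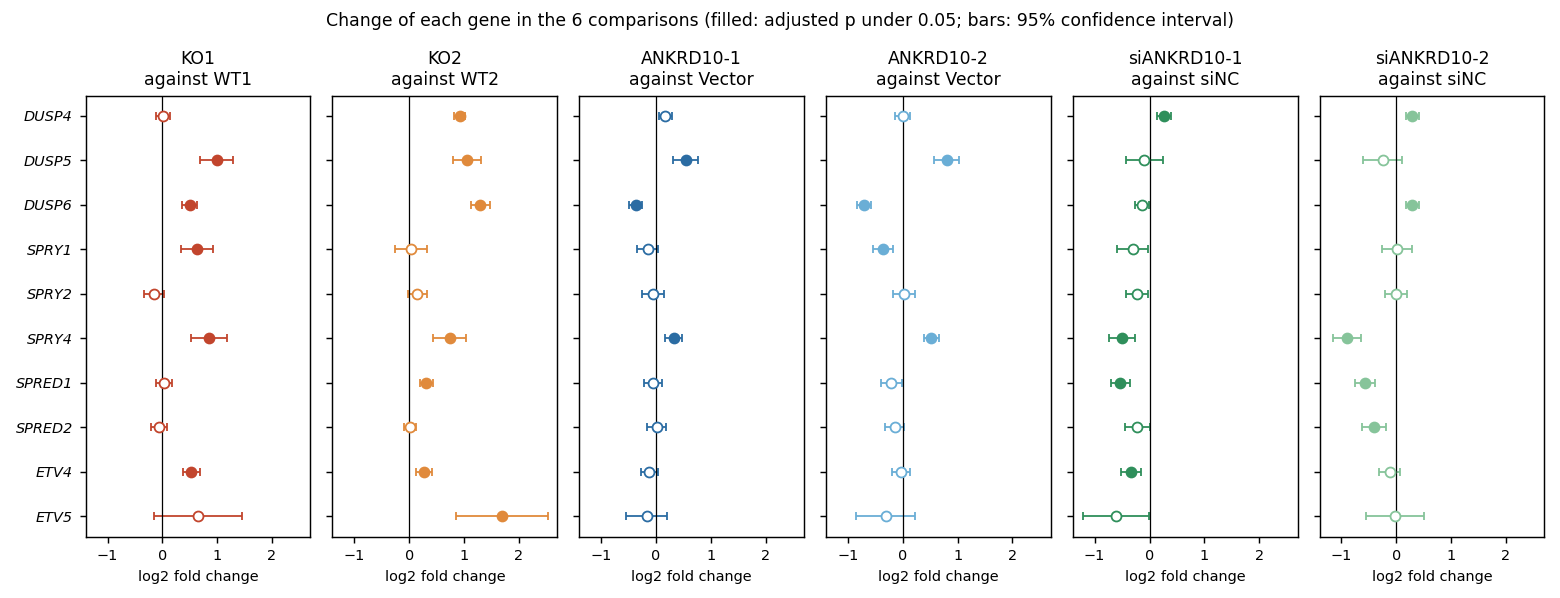
Log2 fold change of each feedback gene in the 6 comparisons with a control group, with 95% confidence intervals, filled where the adjusted p over all genes tested was under 0.05. SPRY4 is filled in all 6 panels, to the right in the knockouts and overexpressions and to the left in the knockdowns, while DUSP6 is to the right in the knockouts, to the left in the overexpressions and to the right with siANKRD10-2.

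Over the 6 comparisons, 28 of the 60 pairs of gene and comparison passed the test, beside 24.2% of the 114475 tests over all genes in the same comparisons. Of the 10 genes 9 passed in at least 1 comparison. The share of all genes that did so was not computed, so that count has no background beside it. SPRY4 had log2 fold changes of 0.85, 0.74, 0.32, 0.52, -0.51 and -0.90 in the order KO1, KO2, ANKRD10-1, ANKRD10-2, siANKRD10-1 and siANKRD10-2. In the same order DUSP5 had 0.99, 1.06, 0.54, 0.80, -0.10 and -0.25, of which the first 4 passed. DUSP6 had 0.50, 1.30, -0.37, -0.70, -0.14 and 0.29, of which all but the siANKRD10-1 value passed. DUSP4 had 0.01, 0.92, 0.17, -0.00, 0.27 and 0.29, and passed in KO2 and with both siRNAs. SPRED1 passed in KO2 as a rise and with both siRNAs as a fall, ETV4 in both knockouts as a rise and with siANKRD10-1 as a fall. SPRY1 passed in KO1 as a rise and with ANKRD10-2 as a fall, SPRED2 with siANKRD10-2 and ETV5 in KO2. The members did not move as 1 block in any of the overexpression or knockdown comparisons, where called genes lay on both sides of 0.

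**Figure D4:**
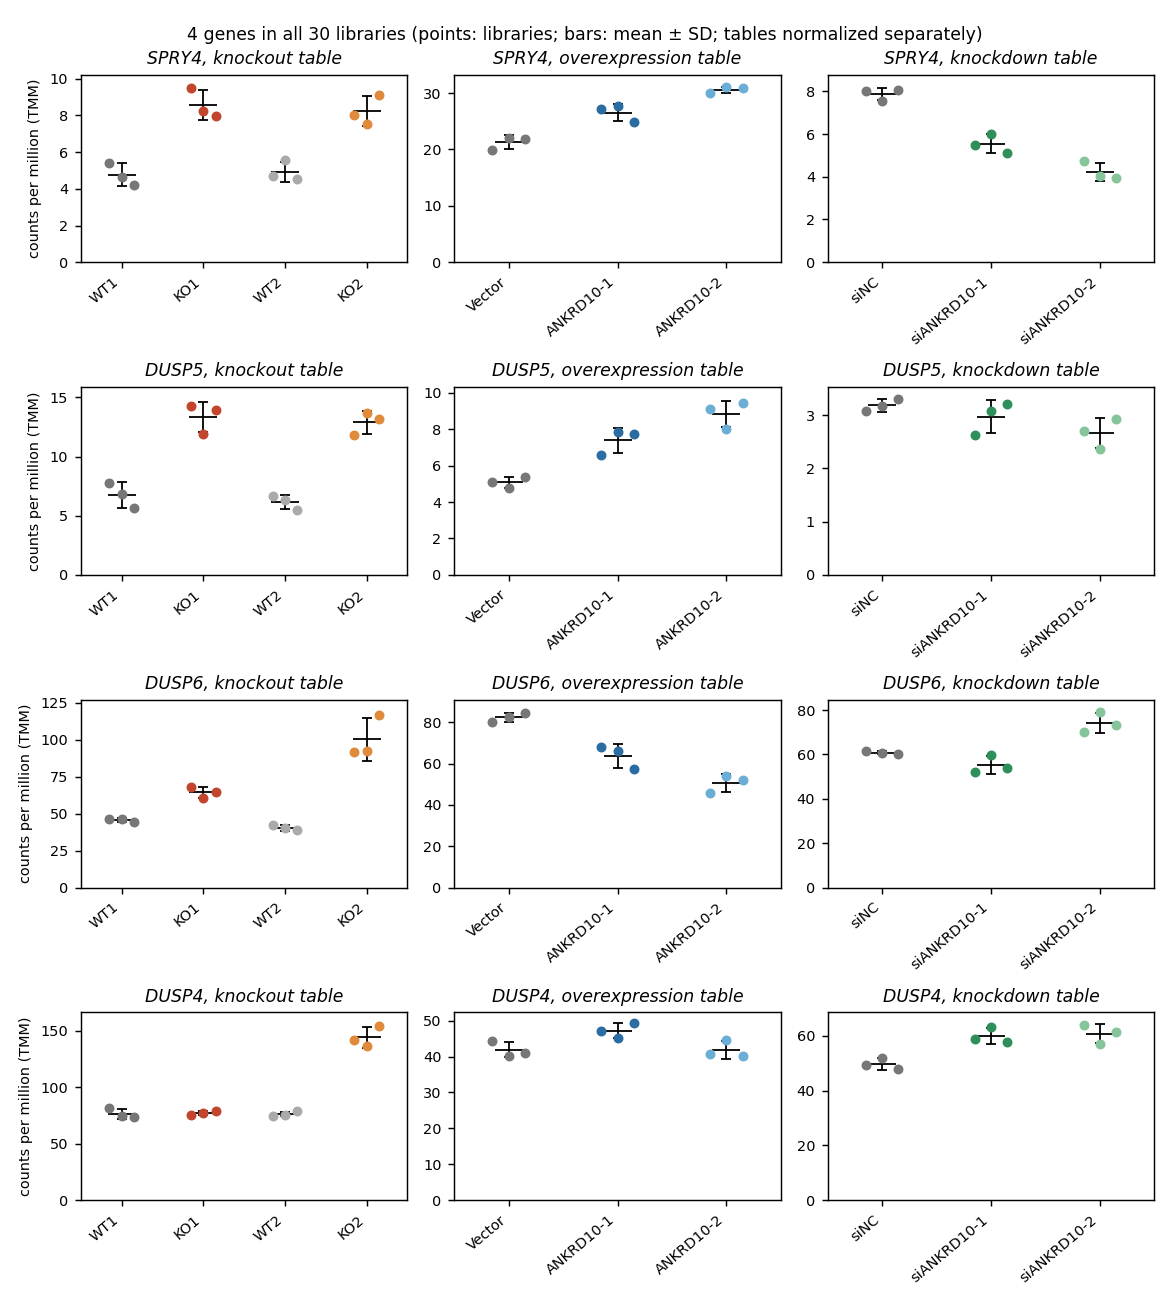
SPRY4, DUSP5, DUSP6 and DUSP4 in all 30 libraries, in CPM on linear axes from 0, with 1 column per table (points are libraries, horizontal marks the mean and bars 1 SD, n = 3 per group). The tables were normalized separately, so levels are to be compared within a panel: SPRY4 and DUSP5 stand above Vector with both isoforms, where DUSP6 stands below it.

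For DUSP6 and SPRY4 the genes with the most similar pattern were sought among 13219 genes tested in all 6 comparisons, by Pearson's r of the deviations of the 18 treated libraries from the mean of their own control group. These points share controls within a table, and r is a description with no test. FBN2 (r = 0.970), SERPINE2 (0.956) and CXCL1 (0.951) were most like DUSP6. ETV5 had r = 0.844 with DUSP6 and ranked 156, DUSP4 had 0.765 and ranked 409, and SPRY4 had 0.225 and ranked 4147. G3BP1 (r = 0.967), ATP2A2 (0.965) and CCND1 (0.963), the last the cyclin D1 gene and a known ERK target, were most like SPRY4. DUSP5 ranked 10 of all genes in likeness to SPRY4 (r = 0.958), and SPRED1 ranked 386 (r = 0.865).

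Other genes that ERK signalling is known to induce were counted from a list of 16: PHLDA1, CCND1, EPHA2, EPHA4, FOSL1, IER3, EGR1, FOS, MYC, ETV1, MAFF, LIF, HBEGF, KCNN4, PLAUR and TFPI2. In KO1 10 rose and 2 fell (median log2 fold change 0.49), beside 17.9% of all genes tested higher and 18.2% lower. In KO2 13 rose and 2 fell (median 1.06), beside 19.3% higher and 19.2% lower. FOSL1, an AP-1 subunit, rose by 2.15 ± 0.10 in KO1 and 1.88 ± 0.14 in KO2, and HBEGF, an EGF receptor ligand, by 1.73 ± 0.08 and 1.77 ± 0.10 (edgeR adjusted p at most 6.88e-07 for these 4 values). CCND1 rose by 1.27 ± 0.06 in KO1 and PLAUR by 1.63 ± 0.06 in KO2, while the ephrin receptor EPHA4 fell by 1.92 ± 0.10 in KO1 and ETV1 fell by 2.21 ± 0.21 in KO2. PLAUR was also lower in WT2 than in WT1, with a log2 difference of -0.40 ± 0.07 (edgeR adjusted p = 0.0229). With ANKRD10-1 3 rose and 3 fell (median 0.05), beside 3.5% of all genes tested higher and 2.81% lower. With ANKRD10-2 7 rose and 3 fell (median 0.06), beside 10.7% higher and 9.25% lower. FOSL1 rose by 0.42 ± 0.04 with ANKRD10-1 and 0.89 ± 0.05 with ANKRD10-2. The immediate early genes EGR1 and FOS fell by 0.55 ± 0.06 and 0.52 ± 0.05 with ANKRD10-1 and by 0.72 ± 0.06 and 0.60 ± 0.05 with ANKRD10-2. With siANKRD10-1 7 of the 16 fell and with siANKRD10-2 9 fell, and the rest did not pass (medians -0.18 and -0.21). Of all genes tested 5.52% were lower with siANKRD10-1 and 18.7% with siANKRD10-2. CCND1 fell by 1.18 ± 0.06 and by 1.48 ± 0.06, and LIF, a cytokine, by 0.50 ± 0.06 and by 0.62 ± 0.05.

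Of the 7 other phosphatases of the same family, in KO1 2 rose and 2 fell, and in KO2 4 rose and 1 fell. The shares over all genes tested were 17.9% higher and 18.2% lower in KO1, and 19.3% higher and 19.2% lower in KO2. DUSP16, which prefers JNK and p38, fell by 0.44 ± 0.08 in KO1 and rose by 0.72 ± 0.05 in KO2 (edgeR adjusted p = 0.00122 and 6.96e-07). DUSP10, another phosphatase of JNK and p38, rose by 0.65 ± 0.09 with ANKRD10-2 and fell by 0.58 ± 0.08 with siANKRD10-1 and by 0.72 ± 0.08 with siANKRD10-2. Of the receptors and ligands, a list of 15, 4 rose and 2 fell in KO1 and 9 rose and 4 fell in KO2, beside the same shares over all genes. The KO1 counts of this list lie near those shares. The EGF receptor ligands EREG and TGFA rose by 0.74 ± 0.06 and 0.61 ± 0.06 in KO1 and by 2.49 ± 0.05 and 1.04 ± 0.06 in KO2, where AREG rose by 1.60 ± 0.06. EREG and AREG were also lower in WT2 than in WT1, with log2 differences of -0.73 ± 0.06 and -0.41 ± 0.07 (edgeR adjusted p = 0.000159 and 0.0128). AREG rose by 0.27 ± 0.05 with ANKRD10-1, by 0.67 ± 0.05 with ANKRD10-2 and by 0.41 ± 0.07 with siANKRD10-1.

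Genes that overlap a member share part of its sequence, and the strand setting of the counting was not given in the sources used here. ETV4 (chr17:43527844-43579620, minus strand) overlaps DHX8 on the opposite strand, a helicase gene at 186 to 198 CPM in the knockout table whose log2 fold change was 0.05 ± 0.05 in KO1 and 0.06 ± 0.04 in KO2. SPRY4 (chr5:142310427-142326455, minus strand) overlaps SPRY4-AS1, which had at most a mean of 0.113 CPM in a group of the knockout table. ETV5 (chr3:186046308-186110318, minus strand) overlaps ETV5-AS1 and DGKG, with mean levels of at most 0.0413 and 0.829 CPM in any group. DUSP6 (chr12:89347232-89353271, minus strand) overlaps an antisense transcript, AC024909.2, that was not analysed here. For members other than DUSP4, the genes within 2 Mb had median log2 fold changes between -0.28 and 0.14 over the 6 comparisons.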

How the data were processed

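The authors deposited 3 tables of raw counts per gene, without normalization, from stranded mRNA libraries of 5637 cells. The submitters' processing notes name Trimmomatic 0.36, featureCounts, Subread 1.5.1 and GRCh38, and the study's methods name Cutadapt, HISAT2, StringTie and DESeq2. The length column deposited with 2 tables is exon length in bases, and it was used for levels per kilobase in all 3 tables. The knockout table was matched by Ensembl identifier.

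Each treated group was compared with its own control group in edgeR 4.0.16 (R 4.3.3), with only their libraries in the fit. Genes were kept by filterByExpr (minimum count 10, minimum total 15), scaled by TMM and tested by the quasi-likelihood test. P-values were adjusted by Benjamini-Hochberg across the genes kept, and 0.05 was the threshold. The prior count was 0.125, and errors are SE unless named SD. CPM are TMM-scaled over all libraries of a table. Knockouts were matched to wild-type groups by number. For groups of 3 the smallest p of an exact permutation test is 0.1. Total counts of 28511029 to 69723937 per library set the precision, and intervals cover the spread between libraries. No 2 libraries of a group agreed within counting noise. Alternatives were DESeq2 1.42.0, its size factors in edgeR, no filter, all groups of a table, all 6 wild-type libraries, a replicate block, a fold minimum and leaving out each library. The 10 genes and the other lists were chosen with earlier results of these data known. In each list the genes named are among the 4 called genes with the largest change and a mean of at least 50 counts.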

Additional observations from a re-analysis of the deposited data

Results flagged for a closer look

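The change after RBPMS knockout differed between KO1 and KO2 for 5 of the 10 feedback genes, by the interaction test of edgeR over all 12 libraries of the knockout table, beside 23.3% of all 19189 genes tested. The differences are log2 values of KO1 minus KO2. DUSP4 differed by -0.91, DUSP6 by -0.81 and SPRED1 by -0.29, each rising more in KO2, while SPRY1 differed by 0.60 and ETV4 by 0.26, each rising more in KO1. The calls of SPRED1, SPRY1 and ETV4 were lost without a filter on low counts (adjusted p = 0.0542, 0.0509 and 0.0668) and without single libraries. The targeted gene itself differed by -0.36, RBPMS being lower against its control in KO1 than in KO2, and ANKRD10 by -0.42. The part of the remaining RBPMS transcript, or of the clone, in these differences was not tested.

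Over the whole lists the same test called 1 of 7 phosphatases with a positive difference and 3 with a negative one. It called 4 and 5 of 16 ERK output genes, and 1 and 7 of 15 receptors and ligands, in the same order. Of all 19189 genes tested 23.3% were called. The genes below are only those that were also among the 4 largest called changes of their list in KO1 or KO2. Among phosphatases DUSP1 differed by -1.45, DUSP8 by -2.96, DUSP16 by -1.16 and DUSP9 by 2.10, the levels of DUSP8 and DUSP9 being under 10 CPM in every group of the table. Among ERK output genes PLAUR, which was also lower in WT2 than in WT1 by a log2 difference of -0.40, differed by -1.28, EPHA4 by -0.99, CCND1 by 0.66 and ETV1 by 2.29. Among receptors and ligands EREG differed by -1.75, AREG by -1.05, TGFA by -0.43 and FGFR2 by 0.94. EREG and AREG were, as given above, also lower in WT2 than in WT1, and that gap between controls enters their differences.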

How the results depend on the processing

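The number of feedback genes called was within 1.5 times the reported number with DESeq2, its size factors in edgeR, no filter on low counts, all groups of the table, all 6 wild-type libraries and a replicate block, save in 2 comparisons. The difference between knockouts had 2 without a filter, and siANKRD10-2 against siANKRD10-1 had 1 by DESeq2. A minimum change of 1 (log2, in either direction) left 3 feedback genes in KO2 and 0 in every other comparison, with 1149 genes of all those tested left in KO1, 1095 in KO2, 1059 in the difference between knockouts, 80 with ANKRD10-1, 241 with ANKRD10-2, 72 between the isoforms, 69 with siANKRD10-1, 500 with siANKRD10-2, 514 between the siRNAs and 16 between the wild-type groups. For WT2 against WT1, DESeq2 called 690 genes and edgeR without a filter 88, against 226.

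Leaving out 1 library gave 5 feedback genes throughout in KO1, 7 in KO2, 4 with ANKRD10-2 and 5 with siANKRD10-2. It gave 2 to 3 with ANKRD10-1, 3 to 5 with siANKRD10-1, 2 to 5 in the difference between knockouts, 0 to 1 between the isoforms and 1 to 3 between the siRNAs. The count between the isoforms was 0 without ANKRD10-1 replicate 1. The count between knockouts was 2 without KO2 replicate 1 and 3 without KO1 replicates 1 or 3, KO2 replicate 3, WT1 replicates 1 or 3 or any WT2 library. Over all genes the counts were 700 to 1549 with ANKRD10-1, 2617 to 3533 with ANKRD10-2, 949 to 2430 with siANKRD10-1, 694 to 1396 between the isoforms and 71 to 133 between the wild-type groups. The low ends came without ANKRD10-1 replicate 1, Vector replicates 1 or 2, siNC replicate 2, ANKRD10-1 replicate 1 and WT2 replicate 2. The count over all genes changed by more than 1.5 times without ANKRD10-1 replicates 1 or 2 or Vector replicates 1 or 2 for ANKRD10-1, without Vector replicates 1 or 2 for ANKRD10-2, without siNC replicates 1 or 2 or siANKRD10-1 replicates 1 or 3 for siANKRD10-1, without any ANKRD10-1 library or ANKRD10-2 replicate 3 between the isoforms, and without any library between wild-type groups.

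No gene that passed the test changed direction under any of these alternatives. Values near 0 that had not passed crossed it when 1 library was left out. DUSP4 ranged from -0.02 to 0.06 in KO1, -0.04 to 0.04 with ANKRD10-2, -0.01 to 0.07 between the siRNAs and -0.03 to 0.04 between wild-type groups. SPRY2 ranged from -0.14 to 0.02 with ANKRD10-1, -0.06 to 0.08 with ANKRD10-2, -0.10 to 0.07 with siANKRD10-2, -0.00 to 0.11 between the isoforms and -0.00 to 0.10 between wild-type groups. SPRED2 ranged from -0.01 to 0.05 in KO2 and -0.03 to 0.07 with ANKRD10-1, and SPRED1 from -0.03 to 0.07 in KO1. SPRY1 ranged from -0.08 to 0.09 in KO2, -0.03 to 0.04 with siANKRD10-2 and -0.00 to 0.15 between wild-type groups. ETV4 ranged from -0.06 to 0.01 with ANKRD10-2, ETV5 from -0.22 to 0.27 with siANKRD10-2 and -0.39 to 0.13 between the isoforms, DUSP5 from -0.19 to 0.04 between knockouts and SPRY4 from -0.04 to 0.15 between wild-type groups. SPRED2 in KO2 was -0.00 without a filter, and SPRY2 with siANKRD10-2 was 0.00 by DESeq2, with its size factors and without a filter. The cause was not tested.

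Libraries with the same replicate number correlated by -0.03 to 0.08 in their deviations from the group means. Of 30 libraries 17 correlated best with their own number, being 9 of 12 in the knockout table, 6 of 9 in the overexpression table and 2 of 9 in the knockdown table. These values do not settle whether the numbers pair the libraries. The main fits did not pair them, and a block was used as an alternative. With the replicate number as a block, the counts were 5 in KO1, 7 in KO2, 3 with ANKRD10-1, 4 with ANKRD10-2, 4 with siANKRD10-1, 5 with siANKRD10-2, 4 between knockouts, 1 between isoforms, 2 between siRNAs and 0 between wild-type groups, and the 1 call lost was that of ETV4 between knockouts (adjusted p = 0.0555). Depth limits ETV5 most, with 23 to 184 counts per library.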

Other observations

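The kinase cascade itself and other brakes on it were counted from 2 further lists. Of 23 genes of the RAS-ERK cascade, 9 rose and 5 fell in KO1 and 9 rose and 3 fell in KO2, with a median log2 fold change of 0.08 in each. Of all genes tested 17.9% were higher and 18.2% lower in KO1, and 19.3% higher and 19.2% lower in KO2, and the genes of the cascade that fell lie near or below these shares. MAP2K1, which encodes the kinase MEK1, rose by 0.52 ± 0.05 and 0.63 ± 0.04, and SHC1, an adaptor of receptor tyrosine kinases, by 0.43 ± 0.05 and 0.53 ± 0.05 (edgeR adjusted p at most 0.000126). With siANKRD10-2, beside 17.6% of all genes higher and 18.7% lower, 1 rose and 7 fell, among them NRAS, which fell by 0.45 ± 0.07 (adjusted p = 7.07e-06).

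Of 12 other feedback regulators of receptors and RAS, 3 rose and 7 fell in KO1, and 3 rose and 2 fell in KO2. Of all genes tested 17.9% were higher and 18.2% lower in KO1, and 19.3% higher and 19.2% lower in KO2. The rises in both knockouts and the falls in KO2 lie near these shares. The adaptor GRB10 rose by 1.03 ± 0.16 and 1.39 ± 0.12, and LRIG3, of a family of receptor regulators, fell by 0.74 ± 0.06 and by 0.92 ± 0.05 (edgeR adjusted p at most 0.000525). PEA15, which holds ERK in the cytoplasm, rose by 0.17 ± 0.05 with ANKRD10-1 and 0.44 ± 0.05 with ANKRD10-2, and fell by 0.28 ± 0.06 with siANKRD10-1 and by 0.39 ± 0.06 with siANKRD10-2 (edgeR adjusted p = 0.0392, 2.64e-05, 0.00403 and 3.02e-06). NF1, which inactivates RAS and is recruited by SPRED proteins, fell by 0.31 ± 0.08 and by 0.50 ± 0.07 with the same siRNAs (adjusted p = 0.02 and 1.64e-06).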
